A study of Macaca mulatta with 11 samples.

Results

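The respiratory chain and the ATP synthase are the protein complexes of the inner mitochondrial membrane that turn the oxidation of nutrients into ATP. Their nuclear genes were taken by symbol: the NDUF, SDHA to SDHD, UQCR, COX4 to COX8, COX10 to COX19 and ATP5 names, with CYC1 and CYCS. The names bring in assembly factors as well as subunits. Of 14132 genes with a measured probe set, 75 carried such a symbol, and CYCS, which encodes cytochrome c, was not among them. They comprise 24 genes of complex I and 6 of its assembly factors, 3 of complex II with 4 assembly factors, 7 of complex III, 10 of complex IV with 6 assembly factors, and 15 of complex V. NDUFA4 and its paralogue NDUFA4L2 are counted with complex IV, where NDUFA4 is now placed. The array symbol ATP5G1, a former name of ATP5MC1, could not be matched to a current gene and is kept apart.

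Complex I oxidizes NADH and complex II oxidizes succinate, and both pass electrons to ubiquinone. Complex III carries them on to cytochrome c, and complex IV hands them to oxygen, while complex V, the ATP synthase, uses the proton gradient that complexes I, III and IV build. In the follicle, cumulus cells are known for active glycolysis and for passing pyruvate to the oocyte, which oxidizes it in its own mitochondria.

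RNA of cumulus cells, the somatic cells around the oocyte, was hybridized to 11 Affymetrix rhesus arrays after amplification from 50 ng of total RNA. All animals had received follicle-stimulating hormone (FSH). The 4 pre-maturation samples (PM) came from immature cumulus-oocyte complexes after FSH alone, the 3 IVM samples from complexes that then matured in culture, and the 4 VVM samples from complexes that matured in the animal after human chorionic gonadotropin (hCG). Separate animals are not stated for samples of 1 group, so p-values here measure no more than the spread between these samples, and culture and the absence of hCG cannot be told apart.

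Array medians lay between 5.34 and 5.53 on the log2 scale, and arrays correlated at 0.974 to 0.987 within groups and at 0.909 to 0.962 between them over all probe sets (probe sets are not replicates). Of 14 measured cumulus and granulosa markers, 13 had group means above the array medians in each of PM, IVM and VVM. At a limma adjusted p under 0.05, 6 of these 14 were higher in IVM than in VVM and 0 lower, beside 9.06% and 7.63% of all genes. Against PM, 4 rose and 6 fell in IVM (all genes, 25.0% and 20.9%), and 2 rose and 8 fell in VVM (18.0% and 21.8%). The mean over 12 leukocyte markers lay at 5.46 to 5.67 in PM, at 5.49 to 5.62 in IVM and at 5.70 to 7.92 in VVM. For 10 oocyte markers it lay at 5.06 to 7.19, 5.28 to 5.39 and 5.25 to 5.66 in the same order, for 5 theca and stroma markers at 4.96 to 5.18, 5.77 to 6.06 and 5.40 to 6.02, and for 6 markers of the ovarian surface epithelium at 6.36 to 6.52, 6.998 to 7.64 and 6.66 to 6.97. For 7 endothelial markers it lay at 5.28 to 5.40, 5.54 to 5.73 and 5.48 to 6.24. For 3 erythrocyte markers it lay at 6.02 to 6.73, 5.67 to 6.04 and 6.44 to 7.16. The bacterial hybridization controls, RNAs added before hybridization, averaged 10.09 in the 4 PM arrays (SD 0.21), 11.92 in the 3 IVM arrays (SD 0.40) and 11.04 in the 4 VVM arrays (SD 0.43), with no overlap between groups. The 3′ minus 5′ difference of actin and GAPDH, a sign of RNA or cDNA length, lay at 3.21 to 3.45 in PM, 3.70 to 4.37 in IVM and 3.45 to 3.91 in VVM.

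By their median, the respiratory genes were highest in the culture-matured cells. Against VVM, 23 of the 75 (30.7%) were higher in IVM and 2 (2.67%) were lower, in limma's moderated test with adjusted p under 0.05. Over all 14132 genes the corresponding shares were 9.06% higher and 7.63% lower. The log2 difference was positive for 63 of the 75 genes, with a median of 0.41 against 0.08 over all genes. All 25 called genes had arrays that did not overlap between IVM and VVM. The same held for 35 of 36 calls in IVM against PM and 20 of 22 in VVM against PM. With so few arrays, a call nearly brings such separation with it, and the share over all genes was not counted. The largest excesses over VVM were in NDUFB7, NDUFS8, NDUFS7, ATP5PF and ATP5MC1, and the genes below VVM were ATP5F1B, the catalytic subunit of the ATP synthase, and COX10, an enzyme of haem A synthesis. In bulk RNA of this kind, fewer cells of a type and less RNA per cell cannot be told apart.

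**Figure D1:**
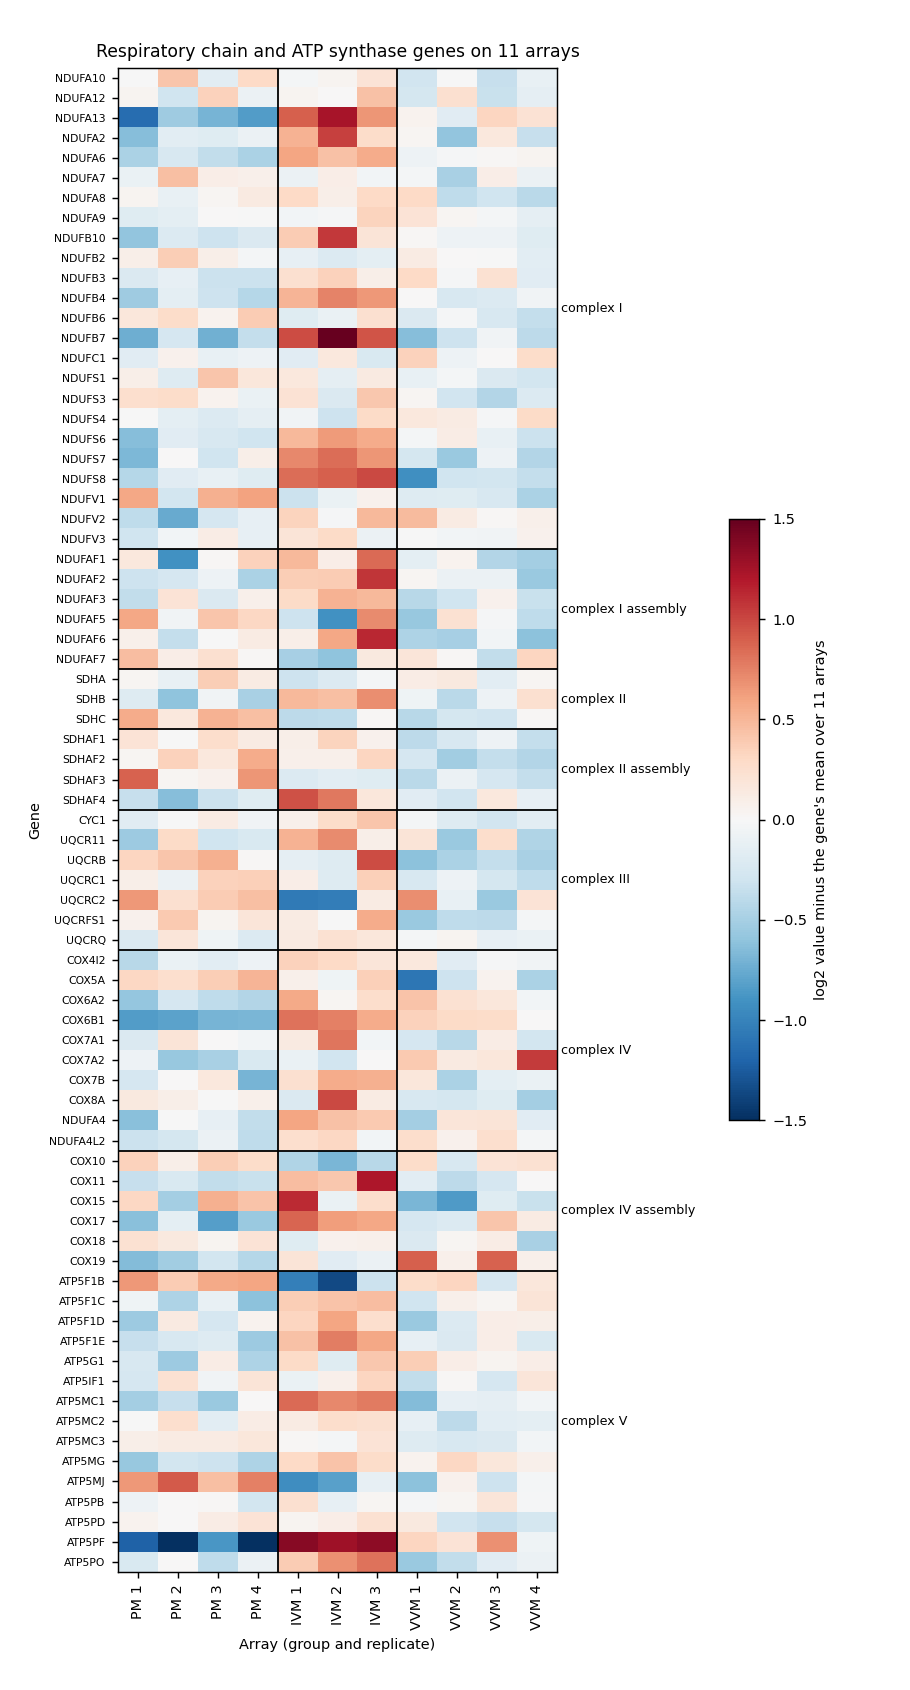
Heat map of the 75 genes (vertical axis, grouped by complex) on the 11 arrays (horizontal axis), with colour for the log2 value minus the gene's mean over 11 arrays, clipped at 1.5 in either direction. Red lies mostly in the 3 IVM columns, while ATP5F1B, COX10 and UQCRC2 run the other way.

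Array by array, the median deviation of the 75 genes from their own means lay at -0.17 to -0.05 in PM, at 0.16 to 0.27 in IVM and at -0.11 to -0.07 in VVM. For all genes it lay at -0.07 to -0.02, at 0.04 to 0.07 and at -0.05 to -0.01. The 3 IVM arrays were thus above all 8 others in both sets, and further above them in the respiratory genes. Against PM, 30 of the 75 (40%) rose in IVM and 6 (8%) fell, beside 25.0% and 20.9% of all genes. In VVM, 11 rose and 11 fell (14.7% each) against PM, beside 18.0% and 21.8% of all genes, so neither share exceeded that over all genes. The median difference from PM was 0.25 in IVM (0.12 over all genes) and -0.11 in VVM (0.04 over all genes). The last of these medians turned to 0.05 after cyclic loess and was -0.22 with arrays centred on their medians. The comparisons with PM share the 4 PM arrays, so their results are given side by side and not set against each other.

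**Figure D2:**
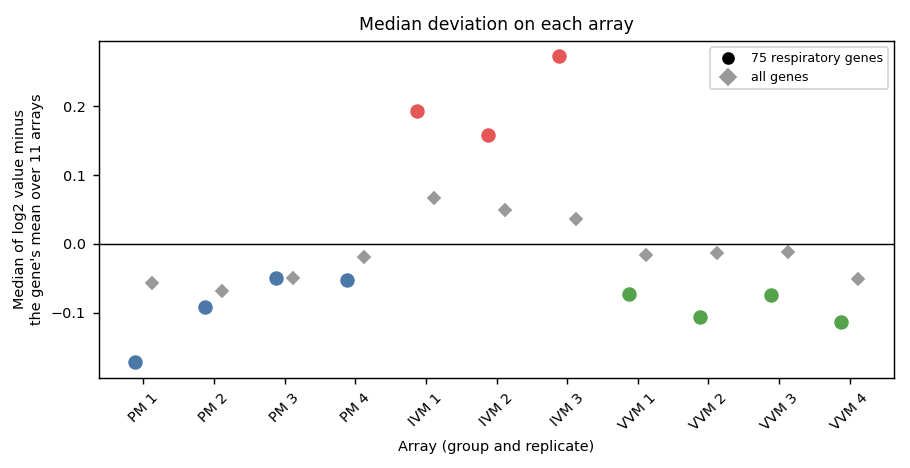
Median over genes of the log2 value minus the gene's mean over 11 arrays (vertical axis, log2) for each array (horizontal axis), circles for the 75 respiratory genes and grey diamonds for all genes. The circles reach 0.16 to 0.27 on the IVM arrays and lie below 0 on the other 8.

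The counts moved with several settings. Without IVM 2, IVM exceeded VVM for 11 genes and was below it for 0, beside 5.68% and 4.39% of all genes. At unadjusted p under 0.05 in limma the counts were 36 and 3. Here and below, the shares over all genes are at adjusted p. None was counted at unadjusted p, so the unadjusted counts have no such share beside them. Without VVM 2, 15 were higher (all genes, 6.80%). Of the 25 calls, 10 held whichever array was left out: NDUFA6, NDUFB4, NDUFB7, NDUFS7, NDUFS8, COX11, ATP5F1E, ATP5MC1, ATP5PF and ATP5PO. With the hybridization controls as a covariate 2 genes were called higher and 0 lower by limma (25 and 0 at unadjusted p under 0.05), beside 1.39% of all genes called higher. That level separates the groups without overlap, so it and the group cannot be told apart. Against PM the same covariate left 0 genes called in either direction in IVM (15 higher and 0 lower at unadjusted p under 0.05), beside 0% of all genes called higher and 0.0142% lower. With a covariate for leukocyte RNA, the mean of PTPRC, CD14, TYROBP and LYZ, 10 were higher and 1 lower (all genes, 4.13% higher). For VVM against PM the leukocyte covariate left 3 higher and 3 lower, beside 6.57% and 10.8% of all genes. The leukocyte covariate was higher on every VVM array than on any PM or IVM array. In both comparisons with VVM, leukocyte RNA and the group therefore cannot be told apart, and the calls lost cannot be assigned to either. With the 3′ minus 5′ difference as covariate, a setting added after seeing the data, IVM against PM gave 17 higher and 2 lower (all genes, 6.82% and 8.76%) and VVM against PM 5 and 3 (9.02% and 13.6%). The 3′ minus 5′ difference did not overlap between IVM (3.70 to 4.37) and PM (3.21 to 3.45), so there too it and the group cannot be told apart. Without PM 1, VVM 2 and VVM 3 together, 12 were higher (all genes, 4.65%).

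**Figure D3:**
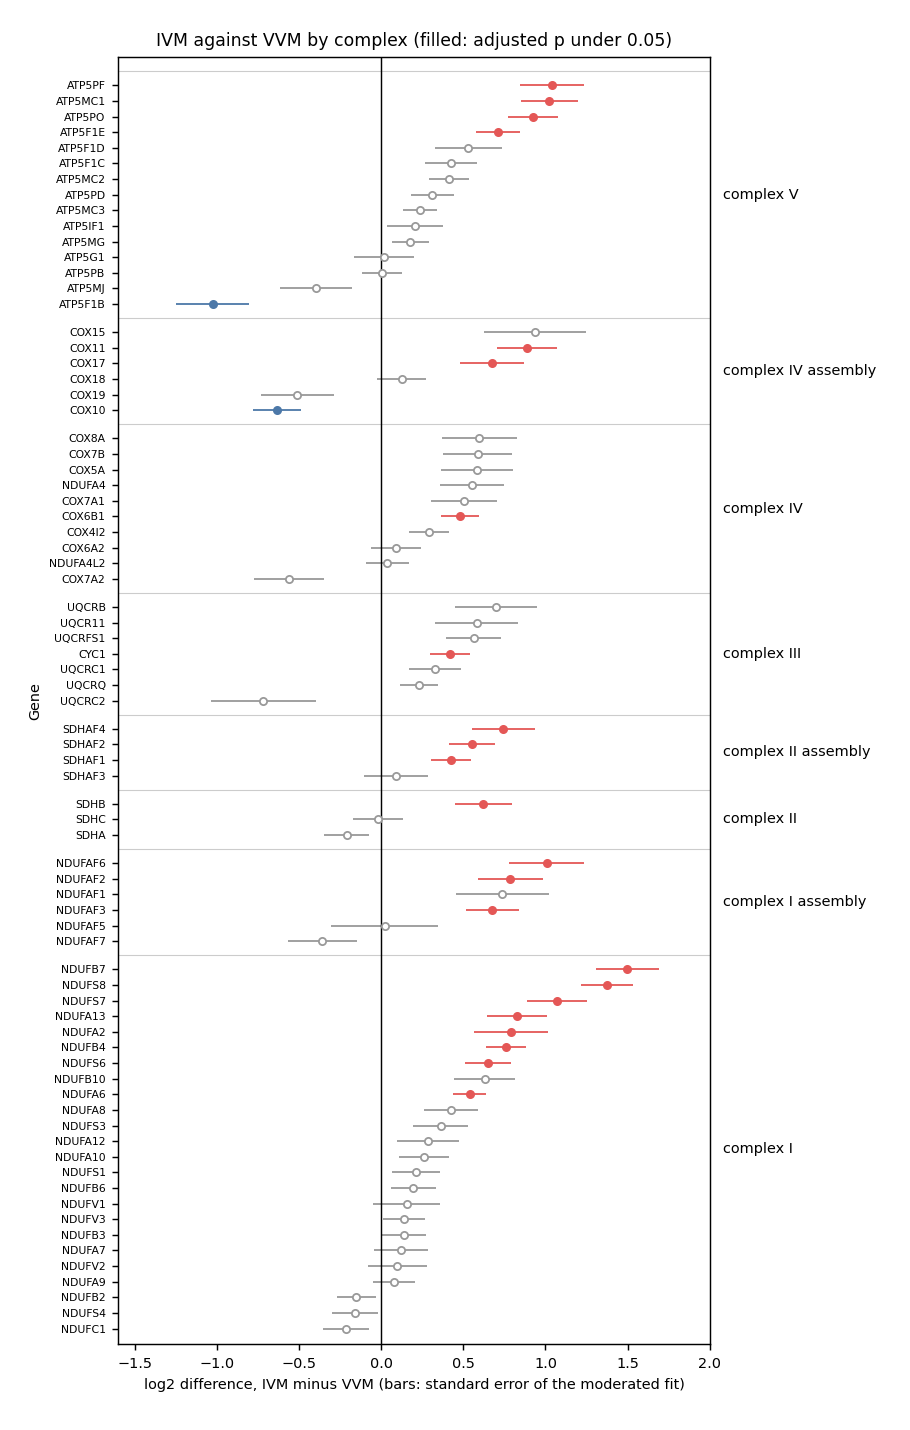
Log2 difference between IVM and VVM (horizontal axis) for each of the 75 genes (vertical axis), grouped by complex, with bars for the standard error and filled points where the adjusted p was under 0.05. Points right of 0 are higher in IVM: 63 of 75 lie there, and the 2 filled points on the left are ATP5F1B and COX10.

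Complex I held the largest differences between IVM and VVM. Of its 24 genes, 8 (33.3%) were higher in IVM and 0 were lower, beside 9.06% and 7.63% of all genes. At unadjusted p under 0.05 in limma the counts were 10 and 0. The 16 genes not called differed by between -0.22 and 0.63. NDUFB7, an accessory subunit on the intermembrane side of the membrane arm, was at 9.80, 10.34 and 9.76 in IVM, at 8.18, 8.51, 8.77 and 8.43 in VVM, and at 8.09, 8.57, 8.10 and 8.47 in PM. All IVM arrays stood clear of the other 8, which overlapped with each other. The IVM minus VVM difference was 1.497 ± 0.19 (SE), a fold of 2.82, with a limma adjusted p of 0.000981. Its probe set can cross-hybridize, and the gene's other probe set, far dimmer at a mean of 3.44 on the log2 scale, differed by 0.18.

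NDUFS8 and NDUFS7 are iron-sulfur core subunits that conduct electrons towards ubiquinone. NDUFS8 was at 10.85, 10.91 and 11.0002 in IVM, at 9.10, 9.71, 9.73 and 9.65 in VVM and at 9.58, 9.85, 9.90 and 9.83 in PM. The IVM arrays were tightly grouped and above every other array, for a difference from VVM of 1.37 ± 0.16 (SE), a fold of 2.59 and a limma adjusted p of 0.000576. The gene's other probe set gave 1.38. NDUFS7 was at 11.91, 12.02 and 11.85 in IVM, at 10.93, 10.63, 11.12 and 10.75 in VVM and at 10.52, 11.20, 10.89 and 11.28 in PM. Here too IVM stood above both other groups, by 1.07 ± 0.18 (SE) over VVM, a fold of 2.10 with a limma adjusted p of 0.00421. A dimmer probe set of NDUFS7 differed by 0.46 in that comparison and was called lower than PM in both IVM (-1.38) and VVM (-1.84), opposite to the rise of the brighter one in IVM.

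NDUFA13, an accessory subunit also known as GRIM-19, differed between all 3 groups. It was at 9.50, 10.12, 9.95 and 9.81 in PM, at 10.70, 10.48, 10.97 and 10.86 in VVM and at 11.55, 11.88 and 11.31 in IVM. PM was lowest and IVM highest with no overlap, and the difference from PM was 1.73 ± 0.18 (SE) in IVM and 0.91 ± 0.17 (SE) in VVM. IVM exceeded VVM by 0.83 ± 0.18 (SE; limma adjusted p 0.0147), a call that ended without IVM 2 (adjusted p 0.0663).

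The remaining called subunits of complex I were accessory ones. NDUFB4 of the membrane arm (0.76 ± 0.12 SE) and NDUFA6, a subunit of the LYR family (0.54 ± 0.10 SE), held their calls whichever array was left out. A dimmer NDUFB4 probe set differed by -0.47, and the mean of both by 0.15, neither of which passed. The NDUFA6 probe set can cross-hybridize, and without such probe sets the difference was 0.09 and did not pass. That value is from the brightest of its other probe sets. A dimmer one, not of a cross-hybridizing type, was called higher (0.55, limma adjusted p 0.0351), and the rest differed by 0.07 and -0.18 and did not pass. NDUFS6, a zinc-binding subunit, was higher by 0.65 ± 0.14 (SE), but its call ended without IVM 2 (adjusted p 0.0520), and another of its probe sets was called the other way (-0.80). NDUFA2, at 0.79 ± 0.23 (SE), lost its call without any of PM 2, PM 3, PM 4, IVM 1, IVM 2, VVM 1, VVM 2 or VVM 4, with adjusted p up to 0.175. Without cross-hybridizing probe sets the NDUFA2 difference was -0.078.

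Against PM, 11 complex I genes (45.8%) rose in IVM and 0 fell (11 and 2 at unadjusted p under 0.05), beside 25.0% and 20.9% of all genes. In VVM 3 rose (12.5%) and 2 fell (8.33%), beside 18.0% and 21.8% of all genes, so neither share exceeded that over all genes. NDUFA2 rose in IVM by 0.87 and lost that call without IVM 2 (adjusted p 0.0503). Beside those above, NDUFB10 (0.88), NDUFV2 (0.65) and NDUFB3 (0.47) rose in IVM. NDUFV1 and NDUFV2 form the module that takes electrons from NADH. NDUFV1 was at 11.84, 10.98, 11.79 and 11.86 in PM, at 10.93, 11.16 and 11.32 in IVM and at 11.06, 11.07, 11.01 and 10.78 in VVM. PM 2 lay within the matured arrays and the other 3 PM arrays above them. NDUFV1 fell in VVM by 0.63 on the log2 scale (SE 0.19, limma adjusted p 0.0265), a call that ended without PM 1, PM 3, PM 4, VVM 3 or VVM 4 (adjusted p up to 0.0755), whereas NDUFV2 rose there by 0.55 ± 0.17 (SE), a call lost without PM 1, PM 2 or VVM 1 (adjusted p up to 0.0743). NDUFV2 in IVM lost its call without IVM 1 or IVM 3 (adjusted p up to 0.0516), and NDUFB3 without IVM 2 (0.0626). NDUFB6, an accessory subunit, fell in VVM by 0.43 on the log2 scale, a call lost without PM 2, PM 4, VVM 1, VVM 3 or VVM 4 (adjusted p up to 0.0717).

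**Figure D4:**
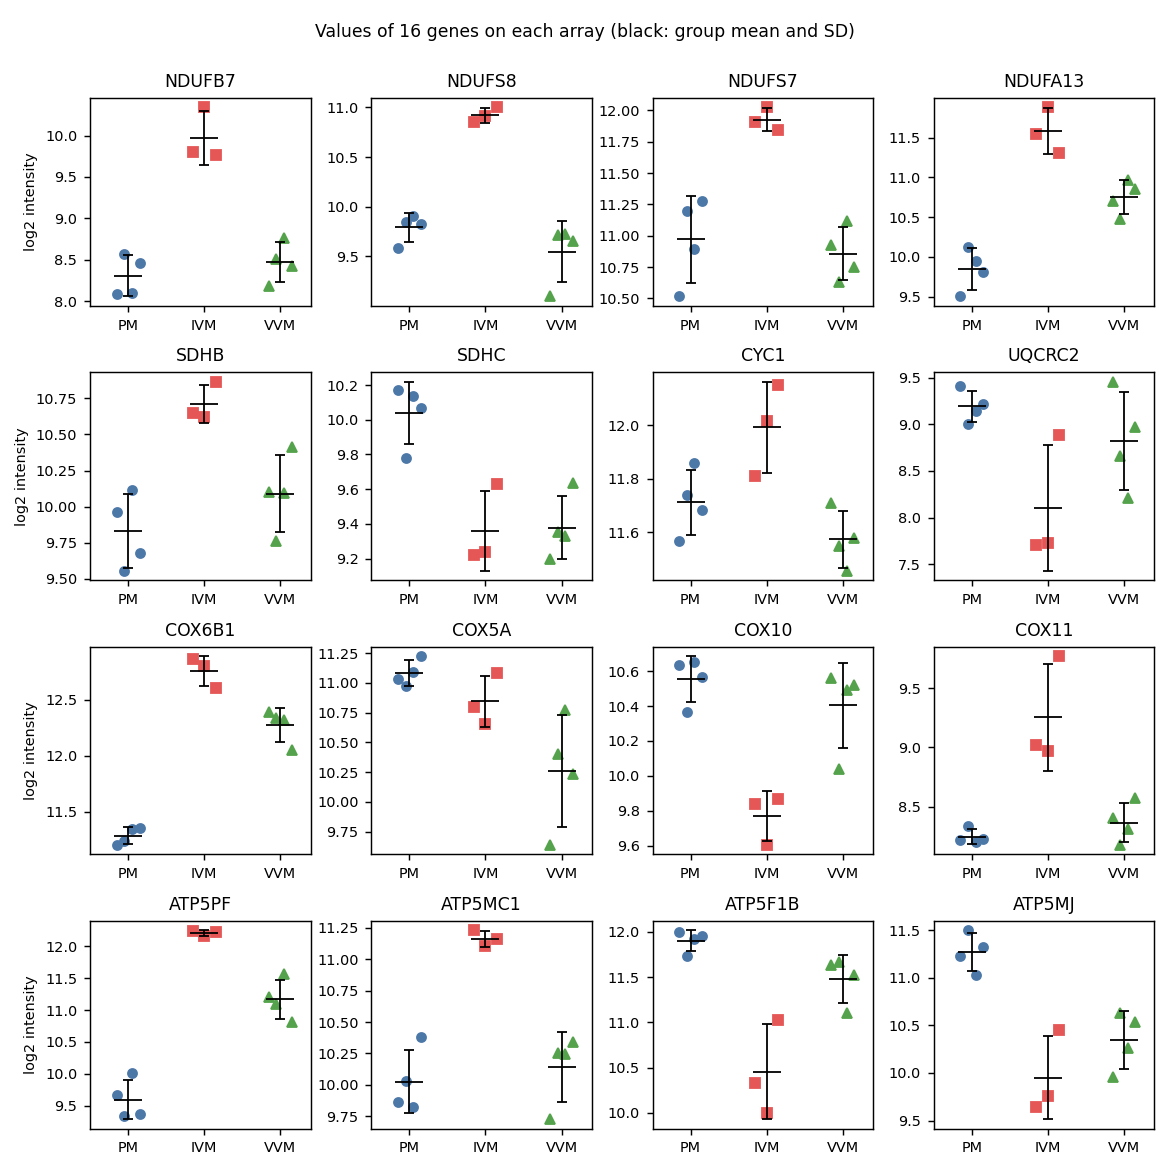
Log2 intensity (vertical axis, its range set for each gene) of 16 genes on each array of PM (circles), IVM (squares) and VVM (triangles), with the group mean and SD in black. IVM lies above PM and VVM for NDUFB7, NDUFS8, NDUFS7, SDHB, COX11 and ATP5MC1, and below both for COX10 and ATP5F1B, while COX6B1, NDUFA13 and ATP5PF are ordered PM, VVM, IVM.

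Of the 6 complex I assembly factors, 3 were higher in IVM than in VVM and 0 were lower (4 and 0 at unadjusted p under 0.05). The shares over all genes were 9.06% and 7.63%. NDUFAF6, which acts early in assembly, was at 7.62, 8.11 and 8.66 in IVM, at 7.06, 7.03, 7.49 and 6.91 in VVM and at 7.60, 7.16, 7.53 and 7.65 in PM. IVM was clear of VVM by 1.01 ± 0.23 (SE; limma adjusted p 0.0166) but overlapped PM, and the call ended without IVM 2 (adjusted p 0.0541). NDUFAF2, a paralogue of the subunit NDUFA12, was at 8.19, 8.20 and 8.89 in IVM, at 7.84, 7.73, 7.73 and 7.27 in VVM and at 7.51, 7.57, 7.75 and 7.34 in PM. IVM exceeded VVM by 0.79 ± 0.20 (SE), with the highest value on IVM 3, and the call ended without IVM 3 or VVM 4 (adjusted p up to 0.0636).

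NDUFAF3 was at 9.44, 9.67 and 9.63 in IVM, at 8.73, 8.85, 9.21 and 8.81 in VVM and at 8.78, 9.35, 8.93 and 9.22 in PM. Its difference from VVM was 0.68 ± 0.16 (SE), and the call ended without IVM 2, IVM 3, VVM 1, VVM 2 or VVM 4 (adjusted p up to 0.0801). The same 3 factors rose over PM in IVM: NDUFAF2 by 0.89, NDUFAF6 by 0.64 and NDUFAF3 by 0.51. Of all genes, 25.0% rose there. The NDUFAF6 rise went down to 0.38 without IVM 3 and the call was lost without any of 9 arrays (all but IVM 1 and VVM 3), with adjusted p up to 0.165. The NDUFAF3 rise was lost without PM 1, PM 3, IVM 2 or IVM 3 (adjusted p up to 0.0868). In VVM, 0 of the 6 passed the test against PM in either direction, with differences between -0.50 and 0.10, and 0 did so at unadjusted p under 0.05 either. Of all genes, 18.0% rose and 21.8% fell in VVM.

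In complex II, the iron-sulfur subunit SDHB was called higher than PM in IVM and the membrane anchor SDHC lower. SDHB was at 9.97, 9.56, 10.12 and 9.68 in PM, at 10.10, 9.76, 10.09 and 10.41 in VVM and at 10.65, 10.62 and 10.87 in IVM. PM and VVM overlapped and IVM lay above both, by 0.88 ± 0.17 (SE; limma adjusted p 0.00259) over PM and by 0.62 ± 0.17 (SE; adjusted p 0.0418) over VVM. The call against VVM ended without PM 1 or PM 4, any IVM array, or any VVM array except VVM 4 (adjusted p up to 0.102). The only SDHB probe set can cross-hybridize.

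SDHC was at 10.17, 9.78, 10.14 and 10.07 in PM, at 9.22, 9.24 and 9.63 in IVM and at 9.20, 9.35, 9.33 and 9.63 in VVM. All PM arrays were above all matured ones, and IVM and VVM overlapped. The fall was 0.68 in IVM (limma adjusted p 0.00515) and 0.66 in VVM (adjusted p 0.00462), and the IVM minus VVM difference was -0.02 ± 0.15 (SE). A dimmer SDHC probe set moved by -0.05 and -0.02 against PM. The flavoprotein subunit SDHA passed no test and differed from PM by -0.28 in IVM and -0.07 in VVM.

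Among the 4 assembly factors of complex II, 3 were higher in IVM than in VVM, beside 9.06% of all genes. SDHAF4, which helps join SDHA to SDHB, was at 6.14, 5.98 and 5.36 in IVM, at 5.02, 4.90, 5.35 and 5.06 in VVM and at 4.84, 4.55, 4.87 and 5.01 in PM. IVM was higher than VVM by 0.74 ± 0.19 (SE) with IVM 3 only just clear of VVM 3, and the call ended without IVM 1, IVM 2, VVM 1, VVM 2 or VVM 4 (adjusted p up to 0.109). It rose over PM by 1.01 ± 0.19 (SE) in IVM. Its mean lay below the array medians in PM and VVM.

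SDHAF2, which loads the flavin cofactor onto SDHA, was at 9.80, 10.12, 9.93 and 10.33 in PM, at 9.84, 9.84 and 10.09 in IVM and at 9.51, 9.24, 9.41 and 9.33 in VVM. VVM was lower than the other groups, which overlapped. It fell from PM to VVM by 0.67 on the log2 scale (SE 0.13, limma adjusted p 0.00271), and IVM exceeded VVM by 0.55 ± 0.14 (SE), a call lost without IVM 2, IVM 3, VVM 2 or VVM 4 (adjusted p up to 0.0757). A dimmer SDHAF2 probe set differed by -0.12 in VVM against PM and by 0.33 in IVM against VVM, neither of which passed. SDHAF1, a factor for the iron-sulfur clusters of SDHB, was at 8.30, 8.09, 8.35 and 8.21 in PM, at 8.17, 8.42 and 8.15 in IVM and at 7.70, 7.85, 8.01 and 7.73 in VVM. As with SDHAF2, the VVM arrays were the low ones, by 0.41 against PM (limma adjusted p 0.0166). Its IVM minus VVM difference of 0.43 ± 0.12 (SE) lost its call without any of PM 1, PM 3, PM 4, IVM 1, IVM 2, VVM 1, VVM 2 or VVM 4 (adjusted p up to 0.159). SDHAF3 was at 4.31, 3.46, 3.50 and 4.10 in PM, at 3.22, 3.27 and 3.24 in IVM and at 3.03, 3.34, 3.18 and 3.07 in VVM, below the array medians in all groups. It was called lower than PM in IVM by 0.60 and in VVM by 0.69 on the log2 scale, the former lost without PM 1, PM 4, IVM 1, IVM 2 or IVM 3 (adjusted p up to 0.0792).

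In complex III, 1 of 7 genes (14.3%) was called higher in IVM than in VVM and 0 were called lower (4 and 1 at unadjusted p under 0.05). The shares over all genes were 9.06% and 7.63%. CYC1, the cytochrome that passes electrons to cytochrome c, was at 11.81, 12.02 and 12.15 in IVM, at 11.71, 11.55, 11.46 and 11.58 in VVM and at 11.57, 11.74, 11.86 and 11.69 in PM. IVM and VVM did not overlap, but the difference was 0.42 ± 0.12 (SE) with a limma adjusted p of 0.0450, and the call was lost when any array except IVM 1 was left out (adjusted p up to 0.119). UQCRC2, a core subunit, was at 9.41, 9.01, 9.15 and 9.22 in PM, at 7.70, 7.73 and 8.88 in IVM and at 9.46, 8.66, 8.21 and 8.97 in VVM. IVM 1 and IVM 2 were low and IVM 3 was near PM, and UQCRC2 fell from PM to IVM by 1.09 on the log2 scale (SE 0.32, limma adjusted p 0.0190). This call ended without IVM 1 or IVM 2 (adjusted p up to 0.0811).

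From PM to VVM, 2 genes of complex III (28.6%) fell and 0 rose (3 and 0 at unadjusted p under 0.05), beside 21.8% and 18.0% of all genes. UQCRB, a small subunit that helps form the quinone pocket, was at 8.35, 8.45, 8.56 and 8.04 in PM, at 7.41, 7.55, 7.67 and 7.55 in VVM and at 7.89, 7.84 and 9.01 in IVM. VVM was below PM by 0.81 (SE 0.23, limma adjusted p 0.0214), IVM 3 was above all PM arrays, and the call ended without PM 3 or VVM 1 (adjusted p up to 0.0556). Of the other 3 UQCRB probe sets, 1 was called lower in VVM (-1.64) and 1 higher (0.41). UQCRFS1, the Rieske iron-sulfur protein, was at 10.03, 10.36, 10.00 and 10.15 in PM, at 9.41, 9.59, 9.57 and 9.94 in VVM and at 10.09, 9.96 and 10.52 in IVM. VVM lay below the other groups, by 0.51 against PM (SE 0.16, adjusted p 0.0281), and the call ended without PM 2, PM 4, VVM 1, VVM 2 or VVM 3 (adjusted p up to 0.0759). The IVM minus VVM differences of UQCRB (0.70 ± 0.25 SE) and UQCRFS1 (0.56 ± 0.17 SE) did not pass, with limma adjusted p of 0.0964 and 0.0528.

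**Figure D5:**
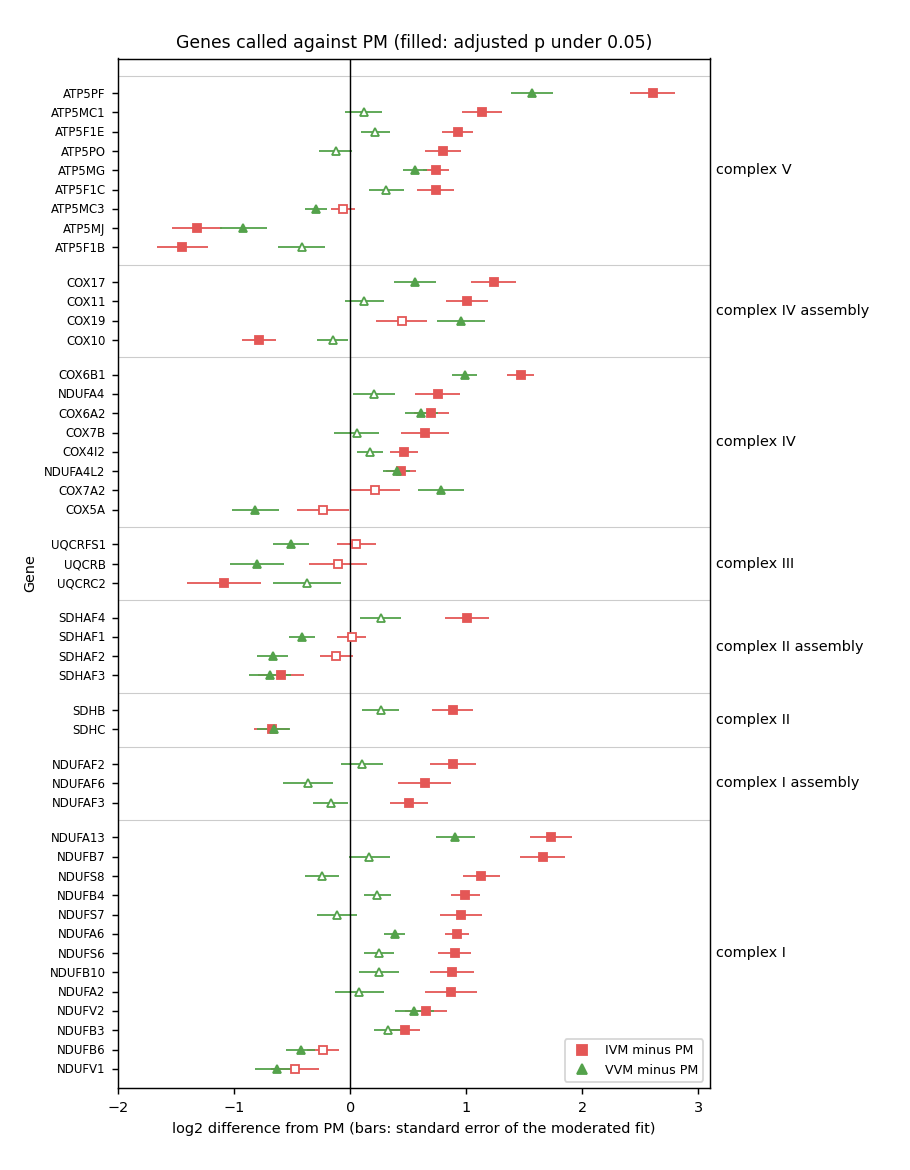
Log2 difference from PM (horizontal axis) in IVM (squares) and in VVM (triangles) for the genes called in at least 1 of those comparisons (vertical axis, grouped by complex), with bars for the standard error and filled points where the adjusted p was under 0.05. ATP5PF has the largest rise in both, 2.61 in IVM and 1.57 in VVM, and ATP5MJ and SDHC lie left of 0 in both, as do ATP5F1B and COX10, which are filled for IVM alone.

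Complex IV is cytochrome c oxidase. Against PM, 6 of its 10 genes rose in IVM and 0 fell, with the same counts at unadjusted p under 0.05, and in VVM 4 rose and 1 fell. Of all genes, 25.0% rose and 20.9% fell in IVM, and 18.0% rose and 21.8% fell in VVM. COX6B1, a subunit on the intermembrane side, was at 11.20, 11.24, 11.34 and 11.36 in PM, at 12.39, 12.34, 12.32 and 12.05 in VVM and at 12.86, 12.80 and 12.61 in IVM. Its only probe set can cross-hybridize. The 3 groups were separate, with rises over PM of 1.47 ± 0.12 (SE) in IVM, a fold of 2.77, and of 0.99 ± 0.11 (SE) in VVM, a fold of 1.98. It was also the 1 gene of complex IV called between IVM and VVM (7 higher and 1 lower at unadjusted p under 0.05), at 0.48 ± 0.12 (SE; limma adjusted p 0.0223), a call that ended without IVM 1 or IVM 2 (adjusted p up to 0.0727). That is 10% of the 10 genes, near the 9.06% of all genes called higher.

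COX5A fell in VVM. It was at 11.03, 10.97, 11.09 and 11.23 in PM, at 10.80, 10.65 and 11.08 in IVM and at 9.64, 10.40, 10.77 and 10.24 in VVM, so all VVM arrays were below all PM arrays and VVM 1 was lowest. The fall from PM was 0.82 on the log2 scale (SE 0.20, limma adjusted p 0.0109). Its difference between IVM and VVM, 0.58 ± 0.22 (SE), did not pass, although a dimmer COX5A probe set was called higher in IVM there (1.78) and lower in VVM against PM (-2.29).

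Several subunits of complex IV exist as isoforms with different tissue patterns. COX7A1, known as the heart and muscle form, was at 9.25, 9.66, 9.47 and 9.43 in PM, at 9.61, 10.27 and 9.43 in IVM and at 9.22, 9.05, 9.58 and 9.19 in VVM, and passed no test. COX7A2, the form of most tissues, was at 10.44, 9.94, 10.02 and 10.28 in PM, at 10.41, 10.23 and 10.53 in IVM and at 10.91, 10.64, 10.68 and 11.57 in VVM. VVM was above PM without overlap, with VVM 4 highest, and the rise was 0.78 ± 0.20 (SE; limma adjusted p 0.0120). The IVM minus VVM difference was -0.56 ± 0.21 (SE) for COX7A2 and 0.51 ± 0.20 (SE) for COX7A1, neither of which passed.

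COX6A2, the striated muscle form, was at 6.75, 7.08, 6.95 and 6.89 in PM, at 7.90, 7.36 and 7.60 in IVM and at 7.76, 7.56, 7.50 and 7.30 in VVM. Both matured groups were above PM and overlapped, with rises of 0.70 ± 0.15 (SE) and 0.61 ± 0.14 (SE). COX4I2, a form best known from lung, was at 4.99, 5.29, 5.24 and 5.32 in PM, at 5.74, 5.69 and 5.58 in IVM and at 5.56, 5.22, 5.38 and 5.35 in VVM, and rose in IVM by 0.46 ± 0.12 (SE). Its PM mean lay below the array medians. The isoforms COX4I1, COX6A1 and COX6B2, whose symbols no probe set used here carried alone, are not analysed here.

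NDUFA4 was at 9.74, 10.36, 10.25 and 10.01 in PM, at 10.96, 10.81 and 10.76 in IVM and at 9.87, 10.55, 10.57 and 10.20 in VVM. IVM was above both other groups, which overlapped, and the rise over PM was 0.75 ± 0.19 (SE; limma adjusted p 0.0102). Its paralogue NDUFA4L2, known as a hypoxia-induced gene, was at 5.76, 5.82, 5.99 and 5.71 in PM, at 6.33, 6.40 and 6.04 in IVM and at 6.34, 6.14, 6.33 and 6.05 in VVM. It rose by 0.44 ± 0.13 (SE) in IVM, a call lost without PM 4, IVM 1 or IVM 2 (adjusted p up to 0.0749), and by 0.40 ± 0.12 (SE) in VVM, a call lost without PM 1, PM 2, PM 4, VVM 1 or VVM 3 (adjusted p up to 0.0713).

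COX7B, a small subunit, was at 10.01, 10.28, 10.43 and 9.57 in PM, at 10.51, 10.83 and 10.80 in IVM and at 10.43, 9.80, 10.12 and 10.16 in VVM. It rose in IVM by 0.64 ± 0.21 (SE), just clear of the highest PM array, and the call ended without PM 1, PM 4, IVM 2 or IVM 3 (adjusted p up to 0.0917). The only COX7B probe set can cross-hybridize. COX8A, another small subunit, was at 8.75, 8.69, 8.59 and 8.68 in PM, at 8.39, 9.60 and 8.73 in IVM and at 8.36, 8.34, 8.42 and 8.09 in VVM. IVM 2 stood above the rest, and no COX8A comparison passed.

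The assembly factors of complex IV went in both directions. COX11 and COX17 deliver copper to the enzyme. COX11 was at 8.21, 8.34, 8.20 and 8.23 in PM, at 9.02, 8.97 and 9.77 in IVM and at 8.40, 8.17, 8.31 and 8.57 in VVM. IVM was above the other groups, with IVM 3 highest, and exceeded VVM by 0.89 ± 0.18 (SE; limma adjusted p 0.01002), while a dimmer probe set gave 0.77 and was called too. COX17 was at 7.67, 8.15, 7.47 and 7.74 in PM, at 9.17, 8.93 and 8.88 in IVM and at 8.05, 8.09, 8.72 and 8.43 in VVM. It rose over PM by 1.24 ± 0.19 (SE) in IVM and by 0.56 ± 0.18 (SE) in VVM, where VVM 1 and VVM 2 lay below the highest PM array and the call ended without PM 1, PM 3, PM 4, VVM 3 or VVM 4 (adjusted p up to 0.0928). The COX17 difference between IVM and VVM, 0.67 ± 0.19 (SE), lost its call without PM 1 or PM 4, any IVM array, or any VVM array except VVM 3 (adjusted p up to 0.135). A dimmer COX17 probe set differed there by 0.38 and did not pass. Against PM it was called higher in IVM (1.02) and in VVM (0.64).

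COX10, the farnesyltransferase that begins haem A synthesis, was at 10.64, 10.37, 10.65 and 10.56 in PM, at 9.84, 9.60 and 9.86 in IVM and at 10.56, 10.04, 10.49 and 10.52 in VVM. IVM lay below every other array. The IVM minus VVM difference was -0.63 ± 0.15 (SE; limma adjusted p 0.0173), a call that ended without IVM 2 (adjusted p 0.0742), and the fall from PM was 0.79 (adjusted p 0.00182). COX15, which acts after COX10 in the same synthesis, differed by 0.94 ± 0.31 (SE) between IVM and VVM and did not pass (adjusted p 0.0796), with IVM 1 at 7.37 and the other IVM arrays at 6.15 and 6.51. COX19, linked to copper handling in the intermembrane space, was at 9.63, 9.76, 10.01 and 9.85 in PM, at 10.47, 10.11 and 10.19 in IVM and at 11.18, 10.35, 11.17 and 10.36 in VVM. VVM exceeded PM by 0.95 ± 0.21 (SE; limma adjusted p 0.00509), with VVM 1 and VVM 3 highest.

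Complex V held the largest change of the whole gene group. ATP5PF, known as coupling factor 6, a part of the peripheral stalk, was at 9.67, 9.34, 10.01 and 9.38 in PM, at 11.20, 11.09, 11.57 and 10.81 in VVM and at 12.24, 12.16 and 12.22 in IVM. The groups were separate and the IVM arrays were tightly grouped (SD 0.04). ATP5PF rose over PM by 2.61 ± 0.19 (SE) in IVM, a fold of 6.10 (limma adjusted p 1.09e-05), and by 1.57 ± 0.18 (SE) in VVM, a fold of 2.97. IVM exceeded VVM by 1.04 ± 0.19 (SE), a fold of 2.05 (adjusted p 0.00621), and each of these calls held whichever array was left out.

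ATP5PO, the oligomycin sensitivity protein that links stalk and head, was higher in IVM than in VVM by 0.92 ± 0.15 (SE), with another bright probe set at 0.94. ATP5F1E, the epsilon subunit of the central stalk, was higher by 0.71 ± 0.13 (SE), while its other, dimmer probe set differed by 0.03 and the mean of both by 0.37, neither of which passed. Against PM in IVM, ATP5F1E rose by 0.93, ATP5PO by 0.80 and ATP5F1C, the gamma subunit, by 0.74. In VVM the same 3 differed from PM by 0.22, -0.13 and 0.31, respectively, and did not pass. ATP5MG, which takes part in dimers of the enzyme, rose over PM in both, by 0.74 ± 0.11 (SE) in IVM and by 0.56 ± 0.11 (SE) in VVM.

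The ring that turns in the membrane is built from a protein encoded by ATP5MC1, ATP5MC2 and ATP5MC3, which differ in their import sequences. ATP5MC1 was at 9.87, 10.03, 9.82 and 10.38 in PM, at 11.23, 11.10 and 11.16 in IVM and at 9.72, 10.25, 10.25 and 10.34 in VVM. IVM was high and tightly grouped, by 1.02 ± 0.17 (SE) over VVM (limma adjusted p 0.00390) and by 1.14 ± 0.17 (SE) over PM, and PM and VVM overlapped. A dimmer ATP5MC1 probe set differed by 0.28 between IVM and VVM and did not pass, and the mean of both gave 0.65. The probe set under the array symbol ATP5G1, a former name of this gene, had a mean of 10.69. That probe set differed by 0.02 ± 0.18 (SE) between IVM and VVM and by 0.45 between IVM and PM, and neither passed. ATP5MC2 was at 6.998, 7.25, 6.84 and 7.12 in PM, at 7.12, 7.27 and 7.24 in IVM and at 6.88, 6.60, 6.84 and 6.86 in VVM, a difference between IVM and VVM of 0.41 ± 0.12 (SE) that did not pass (adjusted p 0.0519). ATP5MC3 was at 12.62, 12.66, 12.66 and 12.71 in PM, at 12.55, 12.50 and 12.74 in IVM and at 12.34, 12.30, 12.32 and 12.50 in VVM. ATP5MC3 fell in VVM by 0.30 on the log2 scale (SE 0.09, adjusted p 0.0333), a call that ended without PM 1, PM 2, PM 3, PM 4, VVM 1, VVM 2 or VVM 3 (adjusted p up to 0.0837).

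ATP5F1B and ATP5MJ went down. ATP5F1B, the beta subunit with the catalytic sites, was at 12.001, 11.73, 11.92 and 11.95 in PM, at 10.33, 10.00 and 11.03 in IVM and at 11.63, 11.67, 11.10 and 11.52 in VVM. IVM was below every other array, with IVM 3 close to VVM 3. It fell from PM to IVM by 1.45 (SE 0.22, fold 2.73, limma adjusted p 0.000570) and was 1.03 below VVM (fold 2.04, adjusted p 0.0126), the latter call lost without IVM 2 (adjusted p 0.0535). Its other probe set fell by 1.34 against PM and differed by -1.09 from VVM, the latter with an adjusted p of 0.0590. ATP5MJ, a small proteolipid of the membrane part, was at 11.22, 11.50, 11.03 and 11.32 in PM, at 9.64, 9.76 and 10.45 in IVM and at 9.95, 10.63, 10.26 and 10.54 in VVM. Both matured groups were below PM and overlapped with each other, with falls of 1.32 in IVM (fold 2.50) and 0.92 in VVM (fold 1.89). A dimmer ATP5MJ probe set differed from PM by 0.14 and 0.03.

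Taken by role, 8 of 16 assembly factors (50%) and 15 of the other 59 genes (25.4%) were higher in IVM than in VVM. The share over all genes was 9.06%. In each class 1 was lower (6.25% and 1.69%, all genes 7.63%), and the median differences were 0.61 and 0.33. Of the assembly factors called higher, COX11 alone kept its call whichever array was left out. The difference between these classes was not tested. Of the 75 genes, 36 had several probe sets. Among the 15 of them called between IVM and VVM, 5 had another probe set called in the same direction and 1 had one called in the opposite direction. For IVM against PM the corresponding numbers were 20, 10 and 2, and for VVM against PM 11, 5 and 1. Such agreement was not counted over all genes with several probe sets, so whether it is usual on this array cannot be said. Probe sets of a gene can read different transcript ends or isoforms, and 14 of the 75 used here can cross-hybridize by their type.

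Other genes of the pathway were counted in the same way, beside the shares of all genes called (9.06% higher and 7.63% lower in IVM against VVM, 25.0% and 20.9% in IVM against PM, 18.0% and 21.8% in VVM against PM). Of 24 measured assembly factors with other names, 8 were higher in IVM than in VVM and 1 was lower, with a median of 0.37. COA4, a factor for complex IV, was higher by 1.29 ± 0.24 (SE) and DMAC1, a factor for complex I, by 1.18 ± 0.14 (SE), while TTC19, a factor of complex III, was lower by 1.71 (adjusted p 0.00868). Against PM, 5 of the 24 rose and 7 fell in IVM, and 1 rose and 13 fell in VVM. Of 17 genes of the tricarboxylic acid cycle and pyruvate entry, which supplies the chain with NADH and succinate, IVM exceeded VVM for 2 and was below it for 4, with a median of -0.34. The malate dehydrogenase gene MDH2 was higher by 1.18 ± 0.13 (SE). PDP1, a phosphatase that activates pyruvate dehydrogenase, was lower by 2.05 (adjusted p 0.00141), and SUCLA2, a subunit of succinyl-CoA ligase, by 1.39 (adjusted p 0.00837). Against PM, 4 of the 17 rose and 6 fell in IVM, and 4 rose and 2 fell in VVM.

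Of 18 measured regulators of mitochondrial gene expression, 2 were called on either side between IVM and VVM, 9 fell and 2 rose in IVM against PM, and 8 fell and 0 rose in VVM, with those last counts the same at unadjusted p under 0.05. MTERF3, a mitochondrial transcription regulator, was higher in IVM than in VVM by 1.64 ± 0.17 (SE), whereas the deacetylase SIRT1 was lower by 1.46 (adjusted p 0.00964) and GABPB1, a partner of the factor that drives many respiratory genes, by 1.17 (adjusted p 0.00676). Chosen after their values were seen, PPARGC1A, a coactivator of mitochondrial biogenesis, fell from PM by 2.03 in IVM and by 1.87 in VVM, the transcription factor NRF1 by 1.25 and 1.19, and TFAM, which packages and transcribes mitochondrial DNA, by 1.40 and 1.58. Among 19 genes of uncoupling and alternative electron entry, limma called 0 higher and 2 lower in IVM against VVM (2 and 4 at unadjusted p under 0.05), COQ8A by 0.82 (adjusted p 0.0395) and COQ9 by 0.47 (adjusted p 0.0256), both of which act in ubiquinone synthesis. Against PM, 3 of the 19 rose and 6 fell in IVM, and 4 rose and 6 fell in VVM.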

How the data were processed

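The deposited values are intensity per probe set, made by the authors with RMA in Affymetrix Expression Console, per the submitters' processing notes. RMA brings arrays towards 1 distribution, so a shift common to most transcripts could be hidden. The medians of the deposited values still differed, at 5.34 to 5.36 in PM, 5.45 to 5.53 in IVM and 5.43 to 5.49 in VVM. No background or detection values were used here. Log2 was taken, with no pseudocount, and the 99 control probe sets were left out, which left 52766. Symbols were updated through gene IDs to the current annotation, and among probe sets with 1 symbol the brightest on average over the arrays stands for its gene. Of the 75 members, 74 matched.

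Group differences come from limma 3.58.1 in R 4.3.3, in 1 model with 3 group means and empirical Bayes moderation (8 residual degrees of freedom, 3.30 from the prior). The two-sided p-values were Benjamini-Hochberg adjusted over all 52766 probe sets in each comparison. The script was tested on simulated data. The members and the other gene lists were chosen with earlier results of these data known. Values on every array are given for the members with the largest called differences in each complex and for isoform sets, and outside the members up to 3 called genes are named per list. Residuals of arrays with the same replicate number correlated between -0.107 and 0.101 over 10 pairs, 1 of them above 0.1, so the numbers were not taken to pair the samples. Alternatives covered scaling, level and cross-hybridization filters, the choice of probe set, thresholds, covariates, array weights and the arrays used. The 3′ minus 5′ covariate was chosen after seeing the data. No sequences or genome positions were used.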

Additional observations from a re-analysis of the deposited data

Results flagged for a closer look

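In groups of 4 arrays, 8 member values stood apart from the other 3, by a gap test that chance meets in about 1 in 20 groups. With 150 groups tested, 7.5 would be expected at that rate, so the number is near chance. Low values were NDUFA2 on PM 1 at 9.60 (the other PM arrays at 10.07 to 10.16), NDUFV1 on PM 2 at 10.98 (11.79 to 11.86), NDUFS8 on VVM 1 at 9.10 (the other VVM arrays at 9.65 to 9.73), ATP5MC1 on VVM 1 at 9.72 (10.25 to 10.34), COX10 on VVM 2 at 10.04 (10.49 to 10.56) and ATP5MC2 on VVM 2 at 6.60 (6.84 to 6.88). High values were NDUFA8 on VVM 1 at 11.53 (10.82 to 10.94) and ATP5PD on VVM 1 at 11.89 (11.40 to 11.47). Of the 8, 4 lie on VVM 1. No member was called in opposite directions in the transitions from PM to IVM and from PM to VVM.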

How the results depend on the processing

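Without each array in turn, the number of respiratory genes called in IVM against VVM ranged from 11 to 24 higher and from 0 to 3 lower, in IVM against PM from 25 to 32 and from 4 to 8, and in VVM against PM from 8 to 12 and from 7 to 13, the last at 7 without PM 4 or VVM 3. The shares over all genes ranged from 5.68% to 8.69% and from 4.39% to 7.93% in IVM against VVM. They ranged from 18.4% to 25.2% and from 17.2% to 21.3% in IVM against PM. In VVM against PM the ranges were 13.5% to 18.7% and 18.7% to 22.3%. With the replicate block the counts were 17 and 2, 28 and 4, and 10 and 10. The shares over all genes were then 7.32% and 6.41%, 20.6% and 19.1%, and 15.6% and 20.9%. The other counts, higher then lower, that moved by over 1.5 times follow, with the shares over all genes in brackets. For IVM against VVM they were 9 and 0 at adjusted p under 0.01 (3.7% and 3.49%). With the hybridization controls as covariate they were 2 and 0 (1.39% and 0.934%). With leukocyte genes as covariate they were 10 and 1 (4.13% and 4.47%). Without PM 1, VVM 2 and VVM 3, 12 were higher (4.65%). With only IVM and VVM fitted they were 15 and 1 (6.65% and 5.94%). With array weights 1 was lower (5.75%), and without cross-hybridizing probe sets 1 was lower (7.59%). For IVM against PM they were 10 lower with centred arrays (24.1%) and 0 and 0 with the hybridization controls (0% and 0.0142%). With the 3′ minus 5′ difference they were 17 and 2 (6.82% and 8.76%). For VVM against PM they were 7 higher with centred arrays, 6 lower after cyclic loess, 6 and 3 at adjusted p under 0.01, 6 and 7 at 1.5-fold or more, 3 and 0 with the hybridization controls, 3 and 3 with leukocyte genes, 5 and 3 without PM 1, VVM 2 and VVM 3, and 5 and 3 with the 3′ minus 5′ difference. The cause was not tested. Called differences that changed sign were those of NDUFA2 (IVM against VVM, -0.078), NDUFB7 (IVM against PM, -0.17) and ATP5MG (VVM against PM, -0.14) when cross-hybridizing probe sets were left out, so that another probe set stood for the gene. With the mean of all probe sets the sign changed for NDUFS6 (IVM against VVM, -0.16) and NDUFS7 (IVM against PM, -0.21), and with the hybridization controls for UQCRC2 (1.13) and NDUFA4 (-0.34), both in IVM against PM. Small groups limit the precision, detection calls were not used, and a fold from a group below the array medians may be understated.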
